A study of Mus musculus with 12 samples.

Results

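The genes examined here are 6 transcription factors known for their roles in antibody-secreting cells: Prdm1, Bhlha15, Gfi1, Arid3a, Zbtb20 and Zbtb32. They were picked by name, as the rows of the gene count table that carry their mouse Entrez identifiers. They are 6 of 27179 genes in the table, and all 6 were among the 12767 genes tested after the filter on low counts.

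RNA-Seq was performed on splenic B cells of male C57BL/6 mice (Pep3b background) aged 6 to 12 weeks, with 12 libraries in all and 2 biological replicates for each of 6 stages. Naive B cells received no treatment and were sorted from the spleen as B220+ IgM+ IgDhi cells without the T cell receptor. The other 5 stages were cultured with 25 µg/ml lipopolysaccharide (LPS), a bacterial component that activates B cells and drives a share of them to become plasmablasts, the dividing precursors of plasma cells. Undivided cells (CD69+ and brightest for a dye that is diluted at each division) were sorted 3, 10 and 33 h after LPS, and a pair of populations was sorted on day 4, expanded B cells, which carried CD22 and lacked CD138, and plasmablasts, which carried CD138 and lacked CD22. The model is thus a culture with LPS as the stimulus, and the sort itself fixes the difference in Cd22 and in Sdc1, the gene of CD138, between the day 4 populations. Whether the expanded cells and the plasmablasts of a replicate came from the same culture is not given in the sources used here.

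Naive B cells become antibody-secreting cells by shutting down the B cell programme and building up the secretory machinery. Blimp-1, the zinc finger repressor encoded by Prdm1, is required for this step, and the basic helix-loop-helix factor Mist1 (Bhlha15) is a factor of secretory cells that is also made in plasma cells. Gfi1 is a zinc finger repressor of many blood lineages, and Arid3a (Bright) binds regulatory DNA of the immunoglobulin heavy chain locus. Zbtb20 and Zbtb32 belong to the BTB zinc finger repressors, of which Zbtb20 is known for the long-term survival of plasma cells and Zbtb32 for restraining antibody responses and repressing Ciita, the regulator of MHC class II genes.

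Whether reads or read pairs were counted is not given in the sources used here. The deposited counts of these factors ran from 16 for Bhlha15 to 17076 for Prdm1, in libraries with 23026619 to 60585587 counts in total. Markers of B cells (Cd79a, Cd79b, Ms4a1 and Cd22) were detected at every stage. The 5 plasmablast markers (Sdc1, Tnfrsf17, Jchain, Xbp1 and Irf4) summed to between 22200 and 22500 CPM (counts relative to library size) in plasmablasts. In expanded cells they summed to between 2070 and 2420 CPM. Most of the plasmablast sum was Jchain, at 17200 and 16300 CPM. The sum was also high at 3 h, between 2600 and 3440 CPM, where Irf4 was at 3320 and 2430 CPM. The naive libraries also held more of the markers of other cells. Their 6 myeloid markers summed to between 128 and 299 CPM and their 3 detected erythroid markers to between 80 and 106 CPM, against at most 25.6 and 1.12 CPM at the later stages, and the part of these cells in the naive levels given here was not tested. In such bulk libraries, fewer cells that use a gene and less RNA of it per cell cannot be told apart.

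Levels are given as RPKM, counts divided by the gene length in kilobases and by the library size, scaled with TMM, so that genes can be compared with each other. A gene was called differentially expressed (DE) between 2 stages when its change was larger than 1.5-fold with an adjusted p below 0.05 (edgeR's glmTreat), and fold changes are given as log2 values with their standard error (SE).

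Each factor had a course of its own over the 6 stages. Prdm1 rose at 4 of the 5 consecutive transitions, Bhlha15 at the last 3, and Gfi1 at the plasmablast step alone. Arid3a fell after 3 h and then rose at 2 transitions up to the expanded stage, with no call between expanded cells and plasmablasts. Zbtb32 rose at the first 3 transitions and fell at the last, and Zbtb20 was called only as a fall at the last.

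**Figure D1:**
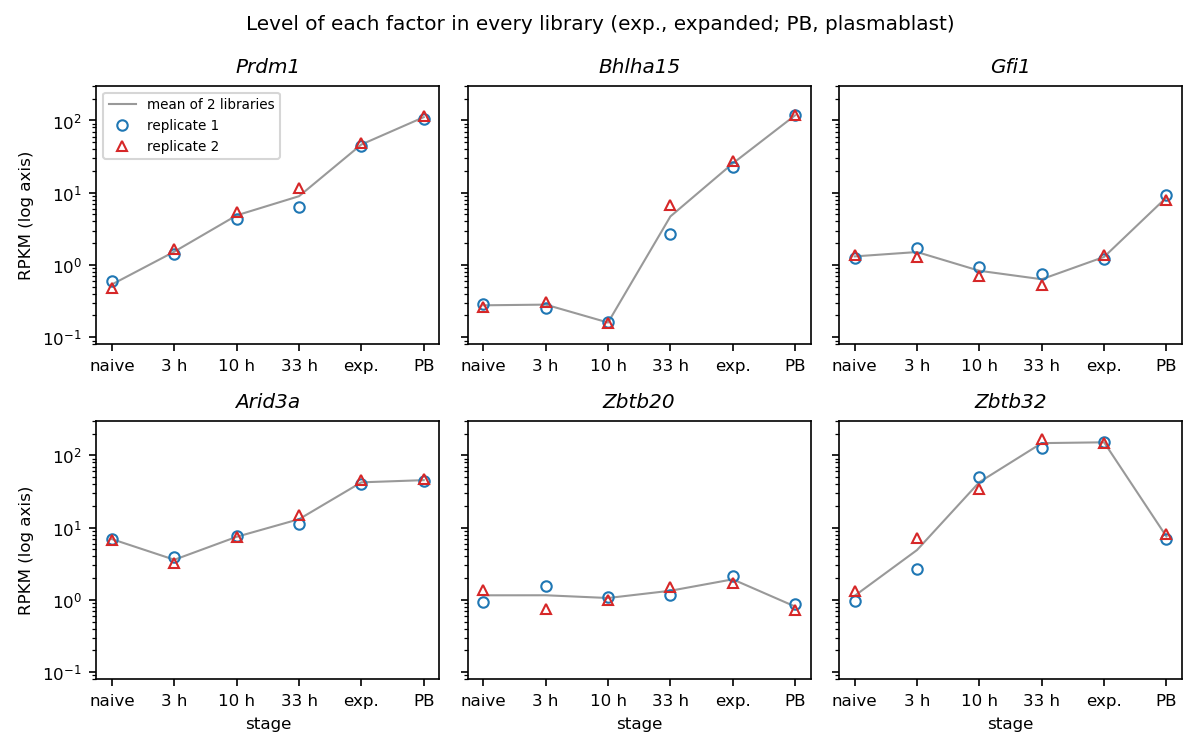
RPKM (log axis) of each factor at the 6 stages, with a circle for replicate 1, a triangle for replicate 2 and a line through the mean of the 2 libraries. Prdm1, Bhlha15 and Gfi1 are highest in plasmablasts, where Zbtb32 is at 4.97% of its highest stage, and Zbtb20 stays between 0.728 and 2.12 RPKM.

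Prdm1 (Entrez 12142, mm10 chr10:44437174-44528558, minus strand) was at 0.603 and 0.475 RPKM in the naive libraries and at 105 and 117 RPKM in plasmablasts. This moved it from the 18.6th to the 93.6th percentile of tested genes. The 3 h libraries held 1.40 and 1.66 RPKM, those of 10 h 4.32 and 5.40, those of 33 h 6.42 and 11.5, and the expanded ones 44.6 and 48.4. No library overlapped with those of a later stage. Against naive cells, plasmablasts held 7.67 ± 0.28 (SE) more on the log2 scale (adjusted p = 1.88e-09). The rise in the first 3 h was 1.5 ± 0.31 (adjusted p = 0.00588), but it was no longer called without 3 h replicate 2 (1.33, adjusted p = 0.148) or without 3 h replicate 1 (adjusted p = 0.050), and over all alternatives its adjusted p ran from 2.11e-09 to 0.148. The rise from 3 to 10 h, 1.65 ± 0.25, was likewise lost without 3 h replicate 1 (adjusted p = 0.0527, in a range from 1.57e-17 to 0.0527).

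Bhlha15 (Entrez 17341, chr5:144190286-144194441, plus strand) was close to silent until 10 h. Its naive libraries held 34 and 24 counts (0.287 and 0.266 RPKM), those at 3 h 16 and 33 counts, and those at 10 h 27 and 21 counts (0.161 and 0.159 RPKM). The stages up to 10 h were between the 12.7th and the 17.3th percentile of tested genes and did not differ from each other. At 33 h, in cells that had not yet divided, the libraries held 546 and 820 counts, or 2.70 and 6.70 RPKM. That rise of 4.84 ± 0.55 (adjusted p = 4.29e-05) was the 48th largest among the 12767 genes tested. The replicates at 33 h differed from each other more than at any other stage, and the rise was called without either of them, at values between 4.07 and 5.38 when each library was left out in turn. Expanded cells then reached 22.9 and 27.9 RPKM, a further 2.46 ± 0.30 (adjusted p = 0.000872), and plasmablasts 118 and 117 RPKM, a further 2.21 ± 0.29 (adjusted p = 0.000562). From naive cells to plasmablasts the change came to 8.72 ± 0.51, and Bhlha15 had the highest RPKM of the 6 factors in both plasmablast libraries, with 41.5% and 39.4% of their summed RPKM.

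Gfi1 (Entrez 14581, chr5:107716655-107725805, minus strand) was low in all stages but the last. The naive libraries held 1.25 and 1.38 RPKM and the 3 h libraries 1.71 and 1.31, followed by 0.952 and 0.711 for 10 h, 0.742 and 0.528 for 33 h, and 1.22 and 1.36 for the expanded stage. The plasmablast libraries, at 9.22 and 7.99 RPKM, were above all 10 others. The rise at the plasmablast step was 2.73 ± 0.20 (adjusted p = 6.46e-07), the 256th largest among tested genes, and it was called under every alternative tried, between 2.40 and 2.86. Before it, Gfi1 declined from 3 h to 33 h by a called 1.20 ± 0.22 (adjusted p = 0.00592), while neither of the single transitions within that span was called (adjusted p = 0.13 and 1). Gfi1 is also known in T cells and myeloid cells. Of 5 T cell markers, whose sum was between 1.51 and 2.11 CPM in plasmablasts and between 0.539 and 0.701 CPM in expanded cells, Cd3e and Cd8a were at 0 in plasmablasts. Cd3g rose at this step, from 0.325 to 1.15 RPKM (1.81, adjusted p = 0.0134), and Cd4 went from 0.0388 to 0.150 RPKM without a call (1.89, adjusted p = 0.053), and the part of such cells in the rise of Gfi1 was not tested. The 6 myeloid markers summed to at most 0.423 CPM in plasmablasts, with Lyz2, S100a8 and S100a9 at 0. In naive cells, the T cell markers summed to between 3.06 and 3.13 CPM and Lyz2 was at 149 and 63.6 CPM. Gfi1 in naive cells was at the level of expanded cells (expanded over naive -0.02 ± 0.21). The annotation places 101 exonic bases of Gfi1 under the antisense gene A430072P03Rik, and strand was not stated for the counting, so reads there cannot be assigned.

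Arid3a (Entrez 13496, chr10:79927043-79955018, plus strand) was the most abundant of the 6 in both naive libraries, at 7.06 and 6.78 RPKM. It was the only factor of the 6 called as a fall after 3 h of LPS, to 3.92 and 3.26 RPKM, a change of -0.96 ± 0.14 (adjusted p = 0.00564). By 10 h it was back at 7.54 and 7.37 RPKM (1.06 ± 0.13, adjusted p = 0.00212), and the naive and 10 h libraries did not differ (0.11 ± 0.13). The libraries at 33 h, at 11.2 and 14.9 RPKM, were above both, a change of 0.81 ± 0.13 that passed the test for a change of any size (adjusted p = 0.000246) but not the 1.5-fold threshold (adjusted p = 0.0896). The rise into expanded cells, to 39.7 and 44.9 RPKM, was 1.70 ± 0.13 (adjusted p = 1.31e-05). Plasmablasts were at 44.3 and 46.3 RPKM, overlapping with expanded cells, and the difference had a 95% confidence interval from -0.17 to 0.37. Its sign turned, to -0.24, when libraries were scaled by their size alone.

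Zbtb32 (Entrez 58206, chr7:30589680-30602819, minus strand) climbed until 33 h, held its level in expanded cells and was low again in plasmablasts. Its naive libraries held 58 and 60 counts (0.965 and 1.31 RPKM), and those at 3 h 85 and 384 counts (2.67 and 7.11 RPKM). The 10 h libraries reached 50.8 and 34.4 RPKM, those of 33 h 126 and 169, and the expanded ones 155 and 148. Plasmablasts were down to 6.98 and 8.06 RPKM. All 6 libraries from 10 h to the expanded stage were thus above the plasmablasts, which in turn were above the naive cells and reached into the range of the 3 h libraries. From 10 h to the expanded stage Zbtb32 was the most abundant of the 6 factors in every library, with 54.3% to 85.0% of their summed RPKM.

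The steps up were 2.19 ± 0.46 by 3 h (adjusted p = 0.00398), 3.06 ± 0.34 from 3 to 10 h (adjusted p = 0.000108) and 1.79 ± 0.30 from 10 to 33 h (adjusted p = 0.00652). The first of these rested on 3 h replicate 2, without which it was 1.22 (adjusted p = 0.142, in a range over the alternatives from 2.59e-22 to 0.142). The third was lost without 10 h replicate 2 (adjusted p = 0.0548) or 33 h replicate 2 (adjusted p = 0.0559). Between 33 h and the expanded stage the difference was 0.04 ± 0.30, with an interval from -0.63 to 0.70. The fall at the plasmablast step, -4.33 ± 0.32 (adjusted p = 7.88e-06), was the 160th largest fall among tested genes and was called under every alternative, between -4.67 and -4.20. Plasmablasts nonetheless held more Zbtb32 than naive cells, by 2.75 ± 0.45 (adjusted p = 0.000499).

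Zbtb20 (Entrez 56490, chr16:42875689-43634392, plus strand) had between 65 and 266 counts a library and the smallest sum over the 12 libraries, although other factors had fewer in some of them. Naive libraries were at 0.929 and 1.38 RPKM, 3 h libraries at 1.56 and 0.752, 10 h libraries at 1.11 and 1.01, and 33 h libraries at 1.17 and 1.5. These stages overlapped with each other except for 10 and 33 h, and no consecutive transition among them was called. The highest pair was the expanded one, at 2.12 and 1.72 RPKM, and the plasmablast pair, at 0.887 and 0.728 RPKM, lay below it. The call between them (-1.26, adjusted p = 0.0282) was lost with DESeq2's Wald test (-1.22, adjusted p = 0.269) and, by the main test, without expanded replicate 1 (-1.10, adjusted p = 0.142), without plasmablast replicate 1 (-1.37, adjusted p = 0.0669) and without plasmablast replicate 2 (-1.09, adjusted p = 0.175), and its adjusted p ran from 0.00151 to 0.269 over the alternatives. Against naive cells, plasmablasts differed by -0.51 ± 0.32, which was not called. The gene length deposited for Zbtb20, 3145 bases, is 10.2% of the 30730 bases that its 21 transcripts cover with exons in the GENCODE annotation. For the other 5 factors the deposited length was between 75.3% and 100% of that span, so the count of Zbtb20 rests on a small part of its annotated exon sequence.

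The promoter windows of Bhlha15, Prdm1 and Zbtb32 are shown because Bhlha15 and Prdm1 had the largest rises of the 6 from naive cells to plasmablasts, and Zbtb32 the largest fall at the plasmablast step. Each is the 250 bases before an annotated start (RefSeq, GRCm38.p6), read 5′ to 3′ on the strand of the gene, with capitals marking CCAAT on either strand. For Bhlha15 the window is chr5:144190036-144190285 (plus strand), for Prdm1 chr10:44458749-44458998 (minus strand) and for Zbtb32 chr7:30598910-30599159 (minus strand). The windows of Prdm1 and Zbtb32 lie inside the gene spans given above, as does that of Zbtb20 searched below. Any start of these genes further upstream was not searched.
Bhlha15: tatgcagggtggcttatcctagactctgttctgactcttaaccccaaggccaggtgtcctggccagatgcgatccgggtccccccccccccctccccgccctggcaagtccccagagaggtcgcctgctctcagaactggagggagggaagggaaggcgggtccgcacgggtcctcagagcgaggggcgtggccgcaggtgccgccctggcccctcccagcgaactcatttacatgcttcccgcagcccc
Prdm1: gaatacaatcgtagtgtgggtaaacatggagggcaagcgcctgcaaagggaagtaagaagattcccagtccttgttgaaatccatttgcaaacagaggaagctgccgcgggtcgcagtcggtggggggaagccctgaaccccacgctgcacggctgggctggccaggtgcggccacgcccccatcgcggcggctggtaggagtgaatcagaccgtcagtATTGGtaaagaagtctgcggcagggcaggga
Zbtb32: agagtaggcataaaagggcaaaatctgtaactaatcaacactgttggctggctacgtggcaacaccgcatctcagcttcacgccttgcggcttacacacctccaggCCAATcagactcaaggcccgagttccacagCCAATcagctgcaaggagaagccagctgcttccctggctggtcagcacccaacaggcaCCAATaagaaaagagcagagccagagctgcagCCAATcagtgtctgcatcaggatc
The Zbtb32 window holds 4 copies of CCAAT, the letters bound by the ubiquitous factor NF-Y, and 0.84% of the 32851 windows of this kind hold 4 or more. It was searched for after the sequence had been seen. At least 1 copy is in 33.8% of the windows, and the Prdm1 window holds 1 and the Bhlha15 window 0. The RefSeq table has 7 windows for 5 of the 6 factors, and the other start of Zbtb32 has no copy.

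Letters that the factors themselves are known to bind were searched for in the same windows, on both strands. GAAAG, the core of the site of Blimp-1, is in 51.5% of all windows. It has 2 copies in the Zbtb20 window and 1 and 2 copies at the 2 starts of Gfi1, and none in the windows of Prdm1, Bhlha15 and Zbtb32. AATC, the core of the site of Gfi1, is in 69% of all windows, and 7.04% hold 4 or more copies. Prdm1 has 4 copies, the first start of Zbtb32 has 5, of which 3 overlap with CCAAT copies, and the first start of Gfi1 and the Zbtb20 window have 1 each. CAGCTG, a site of the kind that basic helix-loop-helix factors bind, is in 13% of all windows and among these 7 only at the first start of Zbtb32, with 2 copies. These are matches of letters, with no measurement of binding.

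At each transition, the number of factors called can be read against all tested genes. In the first 3 h of LPS, 2 of 6 rose (Prdm1 and Zbtb32) and 1 fell (Arid3a), where 21.0% of tested genes rose and 24.3% fell. From 3 to 10 h, 3 rose and 0 fell, against 17.4% and 13.4%, and from 10 to 33 h 2 rose (Bhlha15 and Zbtb32) and 0 fell, against 10.1% and 4.45%. Without the fold threshold, 4 factors rose at that transition, since Prdm1 and Arid3a then passed, and by that test 45.4% of all tested genes differed in either direction. From 33 h to the expanded stage, 3 rose (Prdm1, Bhlha15 and Arid3a) and 0 fell, against 7.00% and 3.67%. At the plasmablast step, 3 rose (Prdm1, Bhlha15 and Gfi1) and 2 fell (Zbtb20 and Zbtb32), against 14.0% and 12.2%. Over the whole course from naive cells to plasmablasts, all but Zbtb20 were higher at the end, 5 of 6, where 26.6% of tested genes were higher and 23.4% lower. The median change of the 6 was 2.73 there, against 0.02 for all tested genes. Comparisons that follow each other share a stage and thus its libraries.

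**Figure D2:**
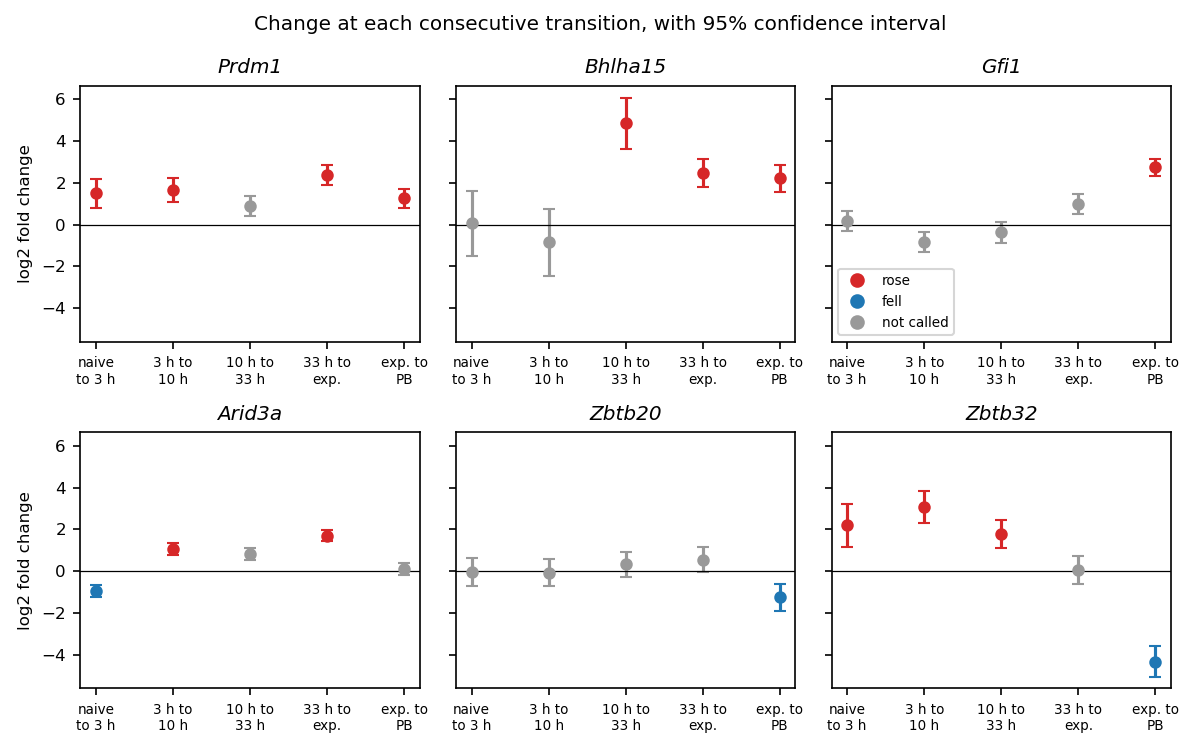
Log2 fold change of each factor at the 5 consecutive transitions, with bars for the 95% confidence interval (exp., expanded; PB, plasmablast), in red where it rose, blue where it fell and grey where it was not called. The plasmablast step holds the only call of Gfi1 (2.73) and Zbtb20 (-1.26) and the only fall of Zbtb32 (-4.33).

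The levels of each factor were also put in order, and neighbours in that order were compared with the F-test for a change of any size. Of 30 such pairs, 16 differed. All 5 pairs differed for Prdm1, in the order of the culture. For Bhlha15, 10 h, naive and 3 h formed a group without a difference, below 33 h, expanded and plasmablast, which each differed from the one before. For Gfi1, 33 h and 10 h did not differ, nor did expanded, naive and 3 h, and plasmablasts stood above all. For Arid3a, naive and 10 h did not differ, nor did expanded cells and plasmablasts. For Zbtb32, 3 h and plasmablast did not differ (0.56 ± 0.36), nor did 33 h and expanded. No neighbours differed for Zbtb20, whose order from the bottom was plasmablast, 10 h, naive, 3 h, 33 h and expanded, and whose naive and 3 h levels were 1.15 and 1.16 RPKM. By the same test, large shares of all tested genes differed: 71.0% between naive cells and 3 h, 62.3% between 3 and 10 h, 45.4% between 10 and 33 h, 39.8% between 33 h and expanded, and 57.0% between expanded and plasmablast. Between stages that do not follow each other the shares were 67.7% for naive and 10 h, 73.0% for naive and expanded, 70.5% for 3 and 33 h, 77.4% for 3 h and plasmablast, 61.7% for 10 h and expanded, and 72.2% for 10 h and plasmablast.

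The expansion step (33 h to expanded) and the plasmablast step (expanded to plasmablast) were compared within each factor by the difference of the changes, which 33.9% of tested genes passed in either direction. The difference was largest for Zbtb32, 4.37 ± 0.53 (adjusted p = 0.000159), for which the first step was 0.04 and the second -4.33. Arid3a gained 1.60 ± 0.22 more at the expansion step (adjusted p = 0.000111). Gfi1 went the other way, with 1.74 ± 0.36 less at expansion than at the plasmablast step (adjusted p = 0.00285), although this was lost without expanded replicate 1 (-1.58, adjusted p = 0.0521, in a range from 1.61e-05 to 0.0521). Bhlha15 rose by 2.46 and then by 2.21, a difference of 0.25 that was not called (adjusted p = 0.75) and an interval from -0.89 to 1.38. That interval is wide, and without 33 h replicate 2 the difference was 1.02 (adjusted p = 0.00143). For Prdm1, the difference of 1.13 ± 0.37 (adjusted p = 0.0339) was not called in 7 of 22 alternatives, without 3 h replicate 1 or 2, expanded replicate 1 or 2, or plasmablast replicate 1 or 2, and in a fit to the 3 stages alone, with adjusted p values up to 0.175. For Zbtb20, the difference of 1.79 ± 0.50 (adjusted p = 0.0128) was not called without expanded replicate 1 (adjusted p = 0.149) or without plasmablast replicate 2 (adjusted p = 0.0502).

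The genes closest to each factor over the 12 libraries were found by Pearson's r of log2 CPM, among 9503 tested genes of sufficient abundance. The libraries share stages and depth, so the values describe likeness only. Bhlha15 was closest to Ada, adenosine deaminase (r = 0.995), Rrbp1, a ribosome-binding protein of the endoplasmic reticulum (0.995), and Hid1, a gene of secretory granule formation (0.993). Hid1 was at 0.0234 RPKM at 10 h and at 95.8 RPKM in plasmablasts. Gfi1 was closest to Fndc3a (0.994), Ndfip1, an adaptor of ubiquitin ligases (0.991), and Ppp2r5a, a regulatory subunit of protein phosphatase 2A (0.986). Fndc3a had a like course, with a low of 2.89 RPKM at 33 h, 6.12 in expanded cells and 40.7 in plasmablasts.

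Arid3a was closest to Ddt (0.993), Cptp, a ceramide-1-phosphate transfer protein (0.990), and Atp8b2 (0.986). Like Arid3a, Ddt was lower at 3 h (17.4 RPKM) than in naive cells (35.4), and it was at 235 RPKM in expanded cells. Zbtb32 was closest to Pnpt1, which processes mitochondrial RNA (0.991), Mrpl1, a mitochondrial ribosomal protein (0.991), and Sephs1 (0.985). Their range was narrower than that of Zbtb32, as Pnpt1 had 6.99 RPKM in the naive stage, 19.0 in the expanded one and 9.68 in plasmablasts. Prdm1 was closest to Plcd3 (0.984), Hmga1b, whose reads may be split with its near-identical copy Hmga1 (0.982), and Srp19, a subunit of the signal recognition particle (0.981). For Zbtb20 no gene exceeded 0.9, and the closest were Dcbld1 (0.854), Trim7 (0.848) and Ppp1cc (0.834). Among the factors themselves, Prdm1, Bhlha15 and Arid3a had r between 0.911 and 0.937 with each other. Such values were common, as 313 of 9503 genes exceeded 0.9 with Prdm1, 310 with Bhlha15 and 296 with Arid3a. The lowest r were those of Gfi1 with Zbtb20 (-0.444) and with Zbtb32 (-0.413).

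The relatives of Gfi1 and Arid3a gave 2 tested genes. Both fell at the plasmablast step, where 12.2% of all tested genes fell, and 2 genes are few for such a count. Gfi1b, a close paralog of Gfi1 with a like DNA-binding domain, had 0 and 2 counts in the naive libraries, then 5 and 15 (3 h), 91 and 59 (10 h), 510 and 273 (33 h), 344 and 275 (expanded) and 4 and 5 (plasmablast). Its mean level was 4.55 ± 0.39 RPKM (SD, n = 2) at 33 h, 4.63 ± 0.14 in expanded cells and 0.0948 ± 0.0027 in plasmablasts. The fall at the plasmablast step was -5.58 (adjusted p = 8.19e-08), at the step where Gfi1 rose by 2.73. Gfi1b thus exceeded Gfi1 in RPKM at 33 h and in expanded cells, overlapped with it at 10 h, and was below it in naive cells, at 3 h and in plasmablasts. Arid3b, the paralog of Arid3a, fell by 1.02 on the log2 scale (adjusted p = 0.00144), from 14.1 to 6.91 RPKM.

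**Figure D3:**
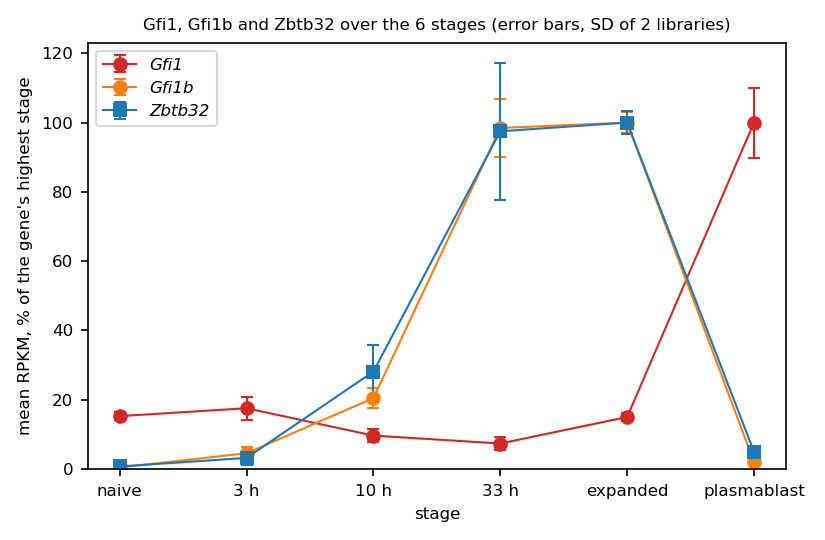
Mean RPKM of Gfi1, Gfi1b and Zbtb32 at the 6 stages as a percentage of each gene's highest stage, with bars for the SD of the 2 libraries. Zbtb32 is at 97.4% at 33 h, 100% in expanded cells and 4.97% in plasmablasts, and Gfi1 is at 7.38% at 33 h and 15.0% in expanded cells before its maximum in plasmablasts.

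Of the ZBTB family, the genes of BTB zinc finger proteins numbered in this way, 36 of 40 were tested. At the plasmablast step 5 rose and 5 fell, close to the shares of all tested genes (14.0% and 12.2%), with a median change of 0.04 against -0.05 for all tested genes. With library size alone the counts were 4 and 10 and the median turned to -0.30. The largest rises were those of Zbtb42 (1.71, adjusted p = 1.41e-05), from 2.62 to 8.57 RPKM, and Zbtb8a (1.61, adjusted p = 0.00034). After Zbtb32, the largest fall was that of Zbtb18 (-1.43, adjusted p = 0.000226), a repressor that is also known in neurons. Zbtb3 (-1.36, adjusted p = 0.00632) and Zbtb20 (-1.26) came next. In expanded cells Zbtb32, at 151 RPKM, was above every other tested member of the family, the next being Zbtb7a at 23.8 RPKM, whereas in plasmablasts it was at 7.52 RPKM, below several others that were led by Zbtb38 at 33.0 and Zbtb7a at 23.0.

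Of the PRDM family, named for the domain it shares with Blimp-1, 8 of 14 were tested. At the plasmablast step 1 of them rose (Prdm1) and 2 fell, against 14.0% and 12.2% of all tested genes. The call of Prdm1 was lost with library size alone (adjusted p = 0.0619, in a range from 2.53e-09 to 0.0619). Prdm11 fell from 1.42 to 0.560 RPKM (-1.34, adjusted p = 0.00679) and Prdm9, known for placing recombination sites in germ cells, from 1.05 to 0.442 RPKM (-1.25, adjusted p = 0.00596). With library size alone 4 members fell. Prdm2, at 14.3 RPKM, was the next in plasmablasts after Prdm1.

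Genes around these factors were followed from lists set by name. Of 8 known activators of Prdm1, 5 rose in the first 3 h and 0 fell, with a median change of 1.40, where 21.0% of all tested genes rose and 24.3% fell with a median of -0.03. From 3 to 10 h 0 rose and 6 fell, with a median of -1.53, against 17.4% and 13.4% and a median of 0.02. Irf4, which drives plasma cell fate, had 53.2 RPKM in naive cells, 615 after 3 h, 132 by 10 h and 87.8 at 33 h. Its level was higher again in expanded cells, at 155 RPKM, and in plasmablasts, at 266. The expansion step (0.82, adjusted p = 0.184) and the plasmablast step (0.78, adjusted p = 0.141) were not called for Irf4. From naive cells to plasmablasts its rise was called (2.32, adjusted p = 5.9e-07). Prdm1 had its highest levels in plasmablasts. At the plasmablast step 1 activator was called as a rise and 2 as a fall, against 14.0% and 12.2% of all tested genes. The rise was that of Fos (2.36, adjusted p = 0.00668). The falls were those of Nfkb1 (-1.39, adjusted p = 3.48e-07) and Tcf3 (-0.78, adjusted p = 0.0137). Fos is an immediate early gene, and its plasmablast libraries spread widely, at 17.9 ± 8.94 RPKM (SD, n = 2).

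Of 9 factors known to hold back plasma cell differentiation, 1 rose and 4 fell at the plasmablast step, against 14.0% and 12.2% of all tested genes. The 2 largest falls were those of Spib, from 118 to 2.62 RPKM (-5.50, adjusted p = 2.13e-10), and Pax5, from 76.3 to 6.97 RPKM (-3.46, adjusted p = 8.41e-08). The 1 that rose was Bach1, a haem-binding repressor related to Bach2, from 2.71 to 10.9 RPKM (2.00, adjusted p = 7.81e-07). Of 9 corepressors of Blimp-1 and Gfi1, 0 rose and 3 fell, against the same shares, with a median change of -0.34 where that of all tested genes was -0.05. These were Prmt5, an arginine methyltransferase (-1.46, adjusted p = 3.94e-06), Hdac1 (-1.43, adjusted p = 4.05e-06) and Hdac2, both histone deacetylases, while Kdm1a, a histone demethylase that works with Gfi1, was at 31.4 RPKM in expanded cells and 28.0 in plasmablasts.

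Of 11 tested genes known as repressed by Blimp-1, 0 rose and 8 fell at the plasmablast step, against 14.0% and 12.2% of all tested genes. Their median change was -3.27, against -0.05 for all tested genes. The list shares Pax5, Spib and Bcl6 with that of factors that hold back plasma cell differentiation. The largest falls were those of Cd22 (-7.95), which the sort fixes, and of Spib (-5.50). Bcl6, Myc and Cxcr5 were not called. At the expansion step, where Prdm1 rose by 2.38, 0 of the 11 rose and 6 fell, with a median of -0.94. Of all tested genes, 7.00% rose and 3.67% fell there, with a median of -0.02. From 3 to 10 h, where Prdm1 rose by 1.65, 1 of the 11 rose and 6 fell, with a median of -1.41. The shares of all tested genes were 17.4% and 13.4% there, with a median of 0.02. In the first 3 h, 3 of the 11 rose and 4 fell, against 21.0% and 24.3%. From 10 to 33 h, 2 rose and 3 fell, against 10.1% and 4.45%. The part of Blimp-1 in the falls of these genes was not tested.

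Of 12 secretory genes known to need Blimp-1 or Xbp1, all 12 rose at the plasmablast step, and 11 did so with library size alone. Of all tested genes, 14.0% rose and 12.2% fell there. The median change of the 12 was 2.03, against -0.05 for all tested genes. Sdc1 (5.01) is fixed by the sort, and Tnfrsf17, the receptor BCMA, had 0 and 2 counts in expanded cells and 144 and 199 in plasmablasts. At the expansion step 7 of the 12 rose and 0 fell, with a median of 1.21. Of all tested genes, 7.00% rose and 3.67% fell at that step, with a median of -0.02. Of 5 genes known as targets of Mist1 in exocrine cells, 3 were tested and all 3 rose at the plasmablast step, against 14.0% of all tested genes. Rab3d, a small GTPase of secretory vesicles, was at 1.27 and 1.57 RPKM in expanded cells and at 11.9 and 12.7 in plasmablasts (3.12, adjusted p = 1.18e-08). Copz2, a coatomer subunit, went from 9 and 7 counts to 58 and 101 counts (3.77, adjusted p = 1.75e-05), and Rab26 had at most 33 counts and was not called with library size alone (adjusted p = 0.0547). When Bhlha15 first rose, from 10 to 33 h, 1 of the 3 rose, against 10.1% of all tested genes. At the expansion step, where Bhlha15 rose by 2.46, 0 of the 3 were called, where 7.00% of tested genes rose and 3.67% fell. With 3 genes such counts say little, and Copz2 and Rab26 had at most 14 counts in any library up to the expanded stage. Rab3d was also at 3.66 RPKM in naive cells, where Bhlha15 was at 0.277 RPKM. This was above the level of Rab3d at 33 h, 1.98 RPKM, and in expanded cells, 1.42. The part of Mist1 in the levels of these genes was not tested.

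**Figure D4:**
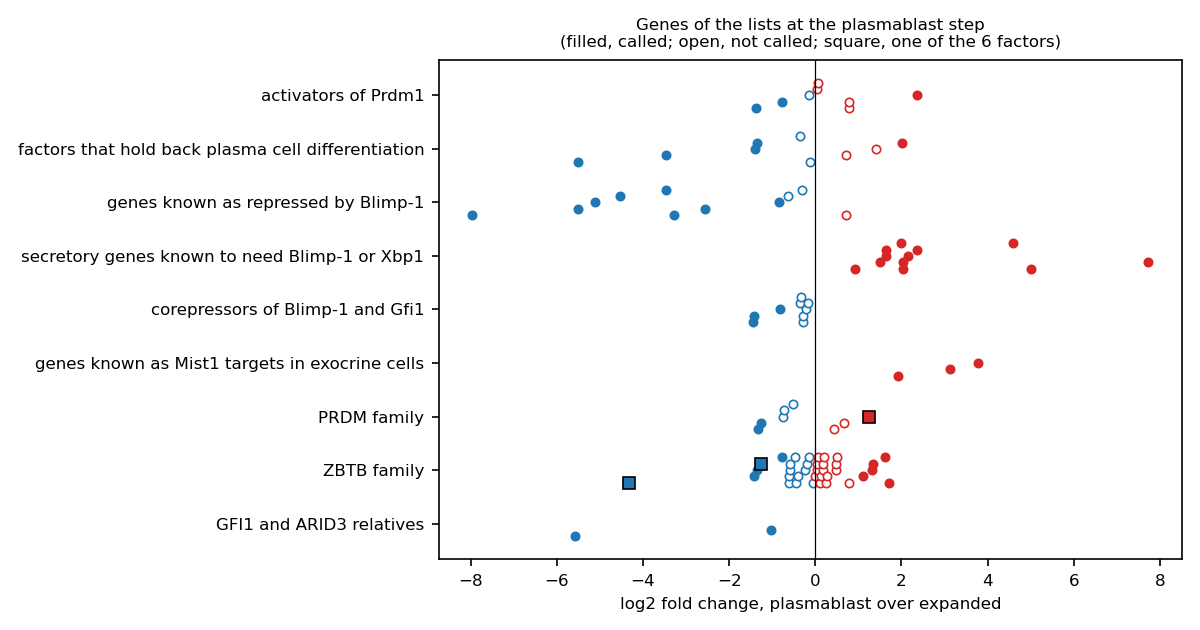
Log2 fold change between plasmablasts and expanded cells of the tested genes of each list, 1 point a gene, filled where called and open where not, with squares for Prdm1, Zbtb20 and Zbtb32. The 12 secretory genes all lie above 0 and are filled, and the genes known as repressed by Blimp-1 reach down to -7.95.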

How the data were processed

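The authors prepared TruSeq libraries from poly(A) RNA, sequenced 81 bp pairs on an Illumina NextSeq, aligned them to mm10 with Rsubread 1.28.0 and made counts on its inbuilt Entrez annotation with featureCounts. The deposited values are these counts per gene, neither normalized nor filtered, with a gene length. The strand setting, and whether a count is a read or a pair, is not given in the sources used here. Obsolete identifiers and mitochondrial, ribosomal RNA, X and Y chromosome and variable immunoglobulin genes were removed, which left 23722 of 27179 genes with 84.1% to 90.6% of the counts, and filterByExpr kept 12767.

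All 12 libraries entered a single layout by stage in edgeR 4.0.16 (R 4.3.3), with TMM scaling, robust dispersions, glmTreat at 1.5-fold or the quasi-likelihood F-test, and Benjamini-Hochberg adjustment over all tested genes. The steps were tested on simulated data. The factors and lists were chosen with earlier results of these data known. 2 genes of the lists are not reported here and were left out of their counts. All 6 factors are described. From each list, the 2 largest called rises and falls at the plasmablast step are given, among genes other than the 6 factors. For each factor, the 3 genes of highest r are given (log2 CPM, prior count 2, average of at least 2). The other genes named with values (among them Irf4, Zbtb7a, Zbtb38, Prdm2, Kdm1a and Rab26) were chosen after their values were seen. Alternatives were other scalings, DESeq2 1.42.0, other filters and dispersions, a replicate block, fits to fewer stages, removed genes kept, and each library left out in turn. P-values set each change against the spread between biological replicates, 2 a stage. That spread was estimated over all 12 libraries together and drawn towards that of other genes.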

Additional observations from a re-analysis of the deposited data

How the results depend on the processing

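The counts of factors called from 33 h to expanded (3) and from naive cells to plasmablasts (5) stayed within 1.5 times of their value under all alternatives. From 10 to 33 h, 4 factors in place of 2 were called with no filter on low counts and with no threshold on the fold change, and 1 to 4 when each library was left out, with 1 without 10 h replicate 2 or 33 h replicate 2 and 4 without 33 h replicate 1. From naive to 3 h the count of 3 went from 1, without 3 h replicate 2, to 3, from 3 to 10 h that of 3 from 2 to 4, and at the plasmablast step that of 5 from 4 to 5. Of the neighbours in the order of stages, 15 to 18 of 30 differed. The expansion and plasmablast steps differed in 2 to 6 factors in place of 5, with 2 without expanded replicate 1 and 3 without plasmablast replicate 2.

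Of 960 values of single factors under alternatives, 914 kept their direction and side of the threshold, 21 lost and 11 gained a call, and 14 turned in sign, none of them called. With library size alone, Arid3a at the plasmablast step was -0.24, Bhlha15 and Gfi1 in the first 3 h -0.15 and -0.026, and Zbtb20 from 3 to 10 h 0.27. With libraries left out in turn, Bhlha15 in the first 3 h ran from -0.15 to 0.16, Zbtb20 from -0.60 to 0.42 and from 3 to 10 h from -0.55 to 0.50, Zbtb32 from 33 h to expanded from -0.16 to 0.26, and the step difference of Bhlha15 from -0.29 to 1.02. Library size alone moved the median change of all genes by -0.21 in the first 3 h, 0.33 from 3 to 10 h, -0.34 at the plasmablast step and -0.28 over the whole course.

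Over 15 pairs of stages, the differences between replicates had r between -0.139 and 0.0839, the highest for expanded cells and plasmablasts. Low values of r cannot exclude that libraries with the same replicate number share mice or a culture, so pairing stays unknown. A replicate block left 5 factors called at the plasmablast step and changed no call, and Bhlha15 in the first 3 h was -0.018 with it. A library left out leaves its stage with 1 sample, which is then assumed to vary like the other stages. The low counts of Zbtb20 and of Bhlha15 before 33 h limit their precision, with SE of up to 0.31 and 0.71 between consecutive stages.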
